A study of Homo sapiens with 6 samples.

Results

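The genes described here are 56 components of human DNA replication with the E2F transcription factors that control them, taken by gene symbol from the deposited expression table. All 56 symbols were among its 58656 rows, and all 56 passed the filter on low counts, as 56 of 16481 genes tested. They comprise the origin recognition complex, the loading factors with their inhibitor geminin, the MCM proteins, the factors that activate the helicase, the polymerases, the sliding clamp and lagging-strand machinery, the fork protection and checkpoint proteins, the chromatin assembly factor and 5 E2F genes. The cells were MDA-MB-231, an established human line of triple-negative breast cancer. One group was treated with mitocurcumin, a mitochondria-targeted derivative of curcumin, at 5 µM, and the other received only its vehicle, DMSO. Exposure lasted 9 hours in both, all cells were grown in DMEM with fetal bovine serum, and polyadenylated RNA was sequenced in 3 libraries per group.

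In G1 the origin recognition complex, CDC6 and CDT1 load the MCM2 to MCM7 ring onto DNA, a step called licensing, which geminin blocks once S phase has begun. The kinase CDC7 with its subunit DBF4 then recruits CDC45 and the GINS complex, and the resulting helicase unwinds DNA ahead of the polymerases. Most of these genes are transcribed in late G1 and S phase by E2F factors, which the retinoblastoma protein RB1 and its relatives restrain. E2F1, E2F2 and E2F3 are counted as activators, whereas E2F7 and E2F8 are atypical members that repress the same targets.

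Total counts ran from 23146822 to 29104681 per library. The labels call the replicates biological without naming separate cultures, so the spread behind the p-values is that of these samples and may be technical. DMSO replicate 1 lay apart from the other DMSO libraries on the second principal component of all tested genes (31.3, against -17.1 and -17.2). Mitocurcumin replicate 2 lay apart on the fourth, at -26.4, and the sample number in its column heading was out of sequence with the others. The line's mesenchymal markers VIM, CD44, CAV1 and AXL averaged 671 to 2337 CPM after mitocurcumin and 679 to 2163 CPM after DMSO. ESR1, the estrogen receptor, held 20.2 counts over the 3 mitocurcumin libraries and 17.6 over the 3 DMSO libraries, and PGR, the progesterone receptor, held 8.50 counts after mitocurcumin and 21.0 after DMSO. The transcript of ERBB2, the third receptor by which triple-negative tumours are defined, was present, at 32.6 ± 2.67 CPM after mitocurcumin and 41.6 ± 6.17 CPM after DMSO (SD, n = 3 each), and was lower (-0.35 ± 0.10, edgeR adjusted p = 0.0150). The epithelial markers EPCAM and CDH1, also listed as low in this line, averaged 20.1 and 2.43 CPM after mitocurcumin and 22.3 and 1.68 CPM after DMSO, and neither passed the test. Of 7 markers of immune, endothelial and fibroblast cells, CD3E, CDH5 and DCN did not pass the filter, and the list summed to 90.7 to 114 CPM after mitocurcumin and 125 to 139 CPM after DMSO, most of it CD68. Of the 4 tested, PECAM1, an endothelial marker, averaged 6.42 ± 0.358 CPM after mitocurcumin and 12.9 ± 1.83 CPM after DMSO (SD, n = 3 each) and was lower (-1.01 ± 0.14, edgeR adjusted p = 2.8e-05). CD68, a macrophage marker, was also lower (-0.29 ± 0.07, edgeR adjusted p = 0.00544), while PTPRC and PDGFRB did not pass. None of the 7 was at 0 over all 6 libraries, and their part in the results was not tested.

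The replication genes fell broadly after mitocurcumin, and the falls were moderate. At a Benjamini-Hochberg adjusted p under 0.05 in edgeR's quasi-likelihood test, 42 of the 56 genes were lower, 1 was higher and 13 did not pass. Thus 75.0% of these genes were lower, where 17.8% of all tested genes were lower, and the 1 higher gene made 1.79% where 14.7% of all tested genes were higher. In either direction 32.5% of all tested genes passed. The median log2 fold change (mitocurcumin over DMSO) of the 56 genes was -0.44, beside -0.0059 over all tested genes. In 45 of the 56 genes every mitocurcumin library lay below every DMSO library (80.4%, against 23.7% of all tested genes). A fall of at least 1.5-fold was called in 15 genes (26.8%, against 4.82% of all tested genes), and a fall of at least 2-fold in 4: E2F2, CLSPN, E2F8 and MCM10.

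The summed level of the 56 genes was 3901, 3921 and 3883 CPM in the mitocurcumin libraries, against 5075, 5142 and 5186 CPM in the DMSO libraries. The groups were thus separated, with little spread within either. In 22 of the 56 genes the highest DMSO value was in DMSO replicate 1 (39.3%, against 38.7% of all tested genes, so a share near the background). Without that library 42 genes were again lower, 41 of them shared with the 42 above, with CDT1 lost and MCM6 gained. Without mitocurcumin replicate 2, 38 genes were lower, all among the 42. In bulk RNA, fewer cells in S phase and less RNA of these genes per cell cannot be told apart. Genes listed as mitotic markers fell as well, in 15 of 15 (17.8% of all tested genes were lower). The list also holds MKI67, TOP2A, CCNA2 and CDK1, which are not specific to mitosis. The summed level of the 15 genes was 4468 to 4902 CPM after mitocurcumin and 6290 to 6955 CPM after DMSO. These sums are unscaled CPM, unlike those of the 56 genes. The list was chosen with earlier results of these data known, so its share is not an independent count. PLK1, a mitotic kinase, changed by -0.81 ± 0.07 on the log2 scale and CENPE, a kinetochore motor, by -0.74 ± 0.12. The part of a changed cell cycle distribution in the results was not tested.

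**Figure D1:**
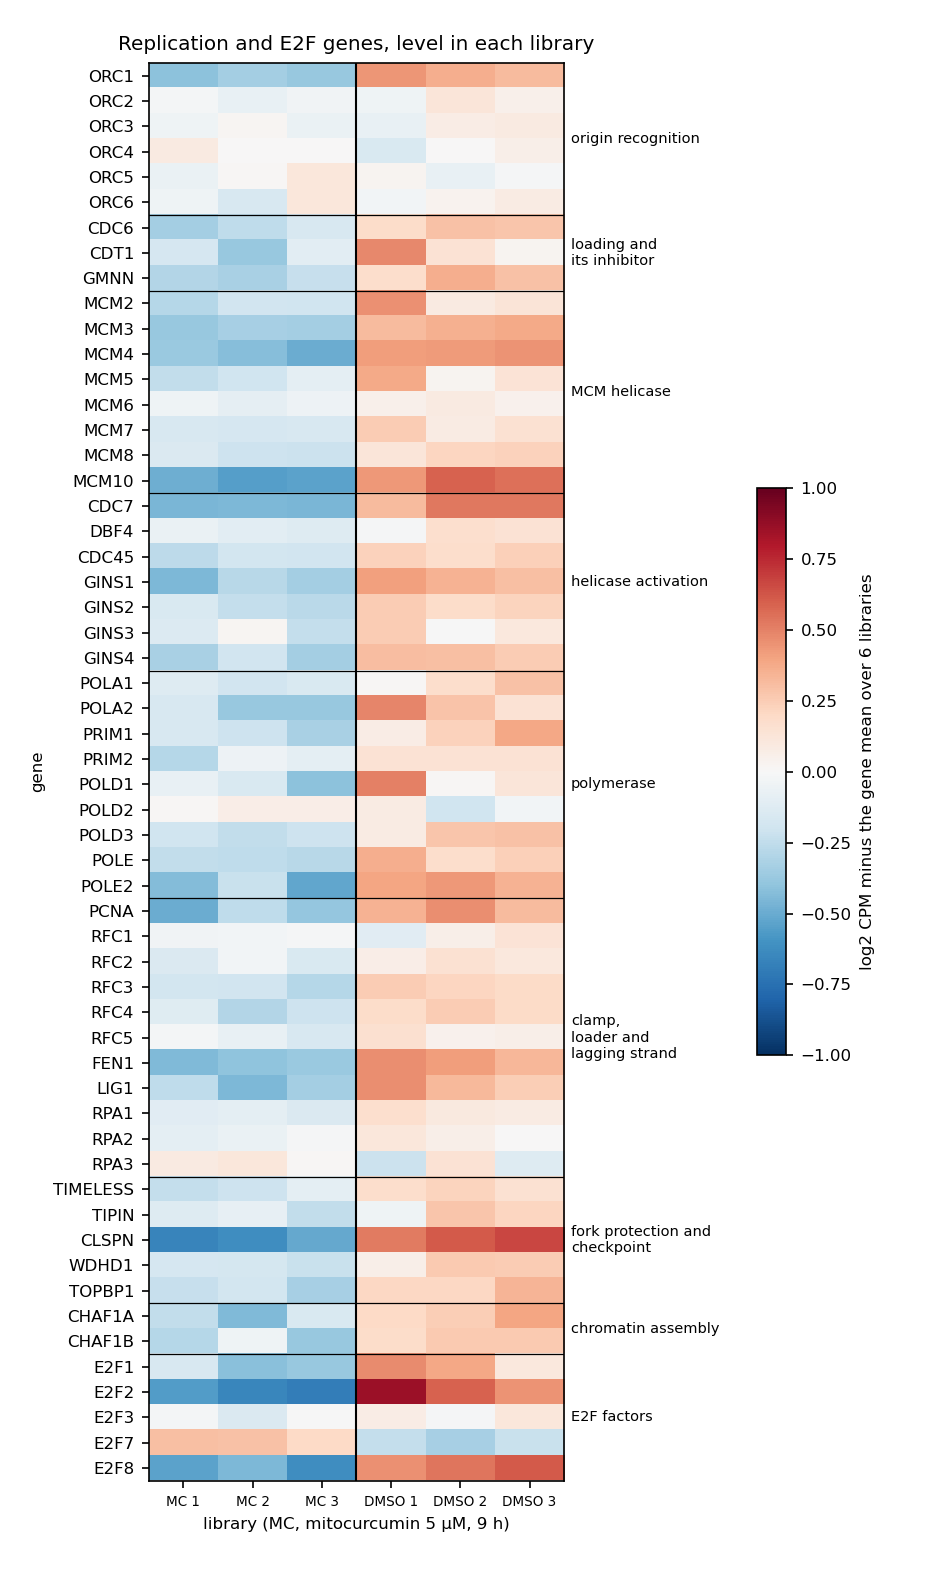
Level of each of the 56 genes in each library, as log2 CPM minus the gene's mean over the 6 libraries (blue below, red above the mean), with the 3 mitocurcumin (MC) libraries left of the 3 DMSO libraries and genes grouped by role. Most rows are blue on the left and red on the right, E2F7 is the reverse, and ORC2 to ORC6 and POLD2 show little separation.

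**Figure D2:**
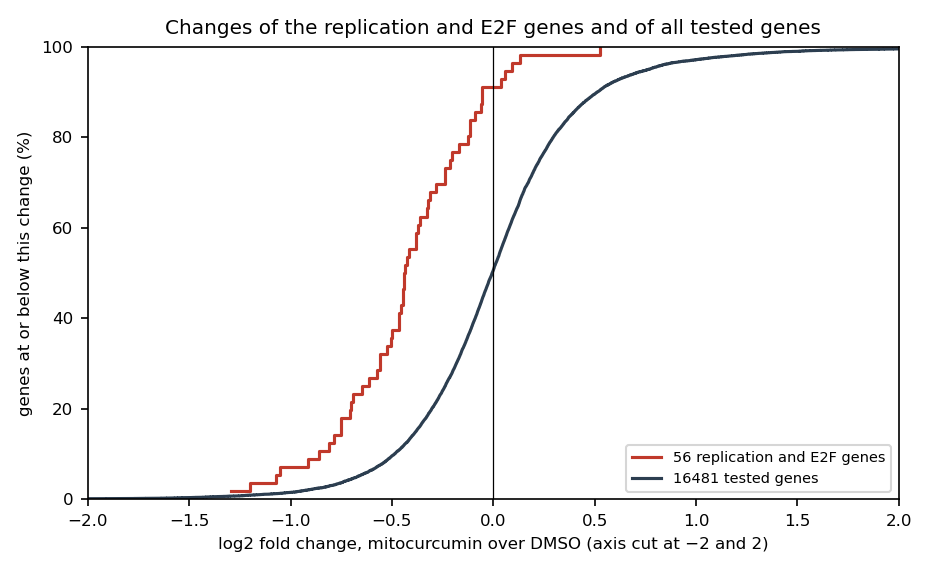
Cumulative share of genes (%) at or below each log2 fold change, mitocurcumin over DMSO, for the 56 replication and E2F genes and for all 16481 tested genes. The median is -0.44 for the 56 genes and -0.0059 for all tested genes.

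The E2F genes held both the largest fall and the only rise of the 56 genes. E2F2 (Entrez 1870, chromosome 1, 23506438 to 23531233, GRCh38), an activator, had 3.23, 3.03 and 2.94 CPM in the mitocurcumin libraries, against 8.73, 7.27 and 6.57 CPM in the DMSO libraries. The groups did not overlap, and the log2 fold change was -1.29 ± 0.17 (edgeR adjusted p = 2.0e-05), the largest fall of the 56 genes. E2F8 (Entrez 79733, chromosome 11, 19224063 to 19241655), an atypical repressor, had 27.3, 29.03 and 25.7 CPM in the mitocurcumin libraries, against 54.3, 57.4 and 60.5 CPM in the DMSO libraries. It changed by -1.07 ± 0.08 (edgeR adjusted p = 3.2e-08), again with separate groups. Its closest relative in the family, E2F7 (Entrez 144455, chromosome 12, 77021251 to 77065569), went the other way, with 316, 314 and 294 CPM in the mitocurcumin libraries, against 217, 204 and 219.9 CPM in the DMSO libraries. Every mitocurcumin library lay above every DMSO library, and the log2 fold change was 0.53 ± 0.05 (edgeR adjusted p = 1.4e-06). E2F1, an activator, changed by -0.65 ± 0.10 (edgeR adjusted p = 1.1e-04). E2F3, also an activator, had 109, 100.4 and 111 CPM after mitocurcumin and 117, 110.2 and 121 CPM after DMSO, groups that overlapped, and a log2 fold change of -0.12 ± 0.06 that did not pass the test (edgeR adjusted p = 0.162).

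**Figure D3:**
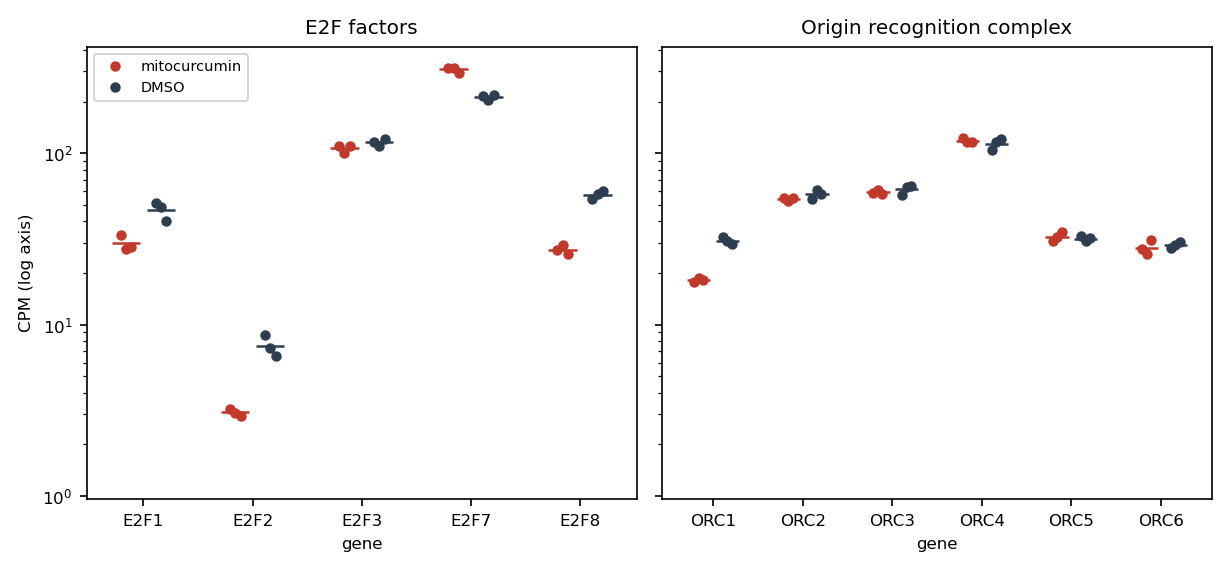
CPM on a log axis of the 5 E2F genes (left) and the 6 subunits of the origin recognition complex (right) in each library, mitocurcumin left of DMSO for each gene, with a line at each group mean. E2F7 is higher after mitocurcumin, E2F1, E2F2, E2F8 and ORC1 are lower, and the points of E2F3 and of ORC2 to ORC6 overlap between groups.

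Since most of these genes are described as transcribed by E2F factors, their promoters were searched for the E2F consensus. The part of E2F factors in the falls was not tested. The windows ran from 250 bases before to 50 after the start site (RefSeq, GRCh38.p14), and 49 of the 56 genes had at least 1 in the table used. Those without were MCM4, MCM5, GINS4, POLD3, RPA2, RPA3 and E2F8. The promoters shown are those of the 3 called genes with a match and the largest change, then that of ORC5, the gene with the smallest change. E2F7, the gene that rose, was added after its values were seen. Capitals mark a match to TTTCCCGC, TTTCGCGC, TTTGCCGC or TTTGGCGC on either strand, and each sequence reads 5′ to 3′ on the gene's own strand.
E2F2, chr1:23531184-23531483, minus strand: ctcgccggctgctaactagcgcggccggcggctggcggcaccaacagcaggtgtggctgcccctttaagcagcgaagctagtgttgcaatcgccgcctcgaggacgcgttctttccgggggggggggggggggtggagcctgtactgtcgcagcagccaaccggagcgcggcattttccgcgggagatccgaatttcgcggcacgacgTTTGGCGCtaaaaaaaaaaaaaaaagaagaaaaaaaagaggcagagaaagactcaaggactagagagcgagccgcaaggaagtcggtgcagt
CLSPN, chr1:35769929-35770228, minus strand: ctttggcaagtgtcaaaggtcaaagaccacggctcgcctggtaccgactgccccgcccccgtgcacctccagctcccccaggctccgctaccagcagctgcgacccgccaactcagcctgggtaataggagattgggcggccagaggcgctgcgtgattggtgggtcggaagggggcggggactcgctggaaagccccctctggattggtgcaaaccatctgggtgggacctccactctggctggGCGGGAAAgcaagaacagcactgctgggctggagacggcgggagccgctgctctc
CDC7, chr1:91500862-91501161, plus strand: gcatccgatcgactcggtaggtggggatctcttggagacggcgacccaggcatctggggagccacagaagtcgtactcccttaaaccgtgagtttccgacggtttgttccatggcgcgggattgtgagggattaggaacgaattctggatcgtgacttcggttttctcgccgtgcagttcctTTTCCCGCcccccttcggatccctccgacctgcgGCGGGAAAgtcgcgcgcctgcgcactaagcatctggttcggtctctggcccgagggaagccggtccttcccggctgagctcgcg
ORC5, chr7:104207964-104208263, minus strand: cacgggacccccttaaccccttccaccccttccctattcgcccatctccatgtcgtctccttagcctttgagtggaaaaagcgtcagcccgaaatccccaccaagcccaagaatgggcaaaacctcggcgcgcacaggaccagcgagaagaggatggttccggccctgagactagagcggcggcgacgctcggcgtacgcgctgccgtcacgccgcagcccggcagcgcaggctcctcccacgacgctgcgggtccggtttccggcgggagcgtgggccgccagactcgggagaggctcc
E2F7, chr12:77065520-77065819, minus strand: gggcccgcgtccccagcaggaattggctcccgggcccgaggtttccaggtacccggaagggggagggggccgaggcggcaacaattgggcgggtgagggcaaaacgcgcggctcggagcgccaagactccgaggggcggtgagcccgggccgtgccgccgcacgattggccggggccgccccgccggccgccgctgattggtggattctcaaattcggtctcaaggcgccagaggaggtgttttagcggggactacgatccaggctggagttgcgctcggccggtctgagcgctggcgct

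The match of E2F2 began 42 bases before the start site and that of CLSPN 5 bases before it. CDC7 had matches beginning 68 and 34 bases before the start in the window shown. It had 2 windows in the table, of which the one with matches was shown, and the other had none. ORC5 and E2F7 had no match in their windows. E2F7, unlike ORC5, did match the shorter motif that lacks the first T. In all, 26 of 49 genes had a match (53.1%, exact binomial 95% interval 38.3% to 67.5%, counting error only). Beside this stood 789 of 12656 tested genes with a promoter (6.23%) and 3.31% of the 35116 promoters searched. The genes were chosen by role and most are described as E2F targets. A larger share among them could therefore be foreseen from that choice, whatever the effect of mitocurcumin. Most matches lay close to the start: of 35, 24 began within the 100 bases before it and 5 after it. Alternative promoters of 1 gene were searched separately but shared no E2F match. Overlapping matches on opposite strands, as in MCM2 and MCM6, were counted separately. Positions in the promoters of other genes were not counted. Of the 26 genes with a match, 22 were lower and 4 did not pass (median log2 fold change -0.50). Of the 23 without a match, 15 were lower, 1 was higher and 7 did not pass (median -0.28). The genes with a match that did not pass were ORC3, MCM6, GINS3 and E2F3, so that matches occurred on both sides of the threshold. The letters CCAAT were in the promoters of 29 of 49 genes (59.2%, beside 42.5% of tested genes). The letters TTTGAA, the core of the cell cycle homology region found in mitotic promoters, were in 2 (4.08%, beside 14.4%), those of DBF4 and E2F3. Neither of these contains an E2F match or is contained in one. A match is a description of letters, not evidence of binding.

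**Figure D4:**
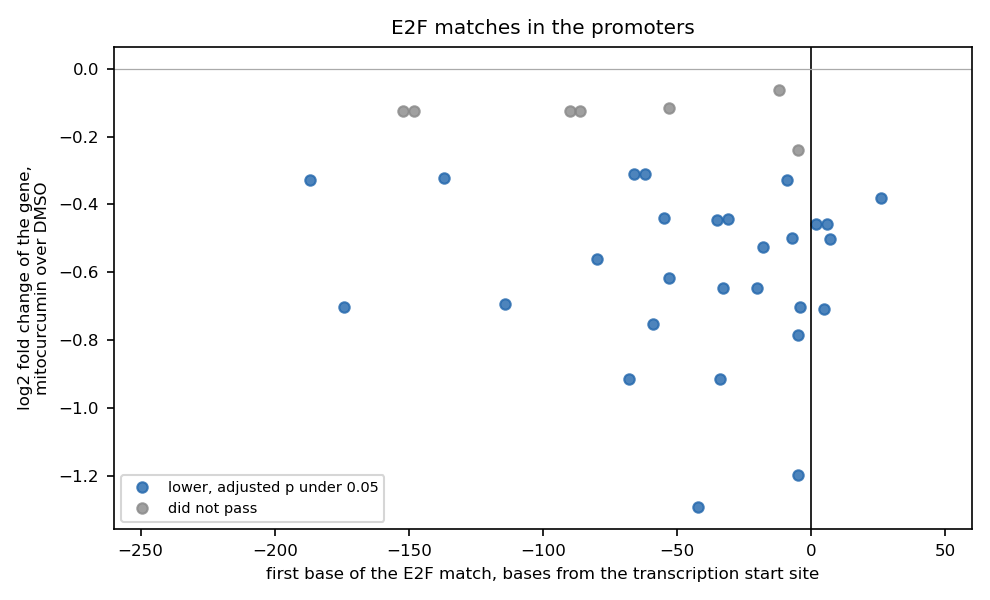
Position of each E2F match (first base, in bases from the transcription start site) against the log2 fold change of its gene, mitocurcumin over DMSO, for 35 matches in the promoters of 26 genes, with genes that were lower in blue and those that did not pass in grey. Of the matches, 24 begin within the 100 bases before the start site, at large and small changes alike.

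In the origin recognition complex, 1 of 6 subunits fell (16.7%, a share close to the 17.8% of all tested genes that were lower). ORC1, the subunit that in human cells is made and destroyed with each cell cycle, had 17.8, 18.8 and 18.3 CPM in the mitocurcumin libraries, against 32.3, 30.6 and 29.5 CPM in the DMSO libraries. The groups were far apart and the log2 fold change was -0.75 ± 0.09 (edgeR adjusted p = 7.5e-06). The subunits ORC2, ORC3, ORC4, ORC5 and ORC6 did not pass, with log2 fold changes of -0.09, -0.06, 0.06, 0.04 and -0.05 and edgeR adjusted p-values of 0.345 to 0.767. ORC2, next in size, had 54.9, 52.8 and 54.4 CPM after mitocurcumin and 54.2, 60.6 and 57.8 CPM after DMSO, and ORC5, with the smallest change of the 56 genes, had 30.7, 32.4 and 34.7 CPM after mitocurcumin and 32.7, 30.5 and 31.9 CPM after DMSO. In both, and in the other 3, the groups overlapped.

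The genes for loading the helicase fell together with that of their inhibitor, as 3 of 3 genes beside 17.8% of all tested genes. GMNN, geminin, which binds CDT1 and prevents relicensing, had 56.2, 55.0 and 58.7 CPM in the mitocurcumin libraries, against 77.8, 88.3 and 84.3 CPM in the DMSO libraries (-0.56 ± 0.07, edgeR adjusted p = 6.8e-06). CDC6, the ATPase that joins the origin recognition complex to load MCM rings, had 108, 115 and 123 CPM after mitocurcumin and 156, 168 and 166 CPM after DMSO (-0.50 ± 0.06, edgeR adjusted p = 7.1e-06). CDT1, which carries the MCM ring to the origin, had 8.49, 7.33 and 8.87 CPM after mitocurcumin and 13.3, 10.6 and 9.73 CPM after DMSO. Its groups were separated by less than 1 CPM, and its log2 fold change was -0.44 ± 0.14 (edgeR adjusted p = 0.0253). That call was lost without mitocurcumin replicate 1 (adjusted p = 0.0707), mitocurcumin replicate 2 (0.140) or DMSO replicate 1 (0.0802), and with limma on the deposited log2 values (0.0790), in an edgeR, DESeq2 and limma range of 0.0134 to 0.140 over 14 alternatives.

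Of the 8 MCM genes, 7 fell (87.5%, beside 17.8% of all tested genes), and in all 8 every mitocurcumin library lay below every DMSO library (beside 23.7% of all tested genes). MCM10 (Entrez 55388, chromosome 10, 13161558 to 13211110), a scaffold that helps to start the loaded helicase and is no part of the ring, had 50.1, 47.9 and 48.6 CPM in the mitocurcumin libraries, against 95.2, 106 and 103 CPM in the DMSO libraries. Its change was -1.05 ± 0.06 on the log2 scale (edgeR adjusted p = 2.6e-09). The subunits of the MCM2 to MCM7 ring changed unequally. MCM4 had 132, 127 and 121 CPM after mitocurcumin and 228, 229 and 233 CPM after DMSO (-0.86 ± 0.05, edgeR adjusted p = 3.3e-09). MCM3 changed by -0.70 ± 0.05, MCM2 by -0.46 ± 0.09, MCM5 by -0.37 ± 0.09 and MCM7 by -0.33 ± 0.05, and all passed. MCM6, at the other end, had 120.4, 117 and 120.3 CPM after mitocurcumin and 129, 132 and 128 CPM after DMSO, narrowly separate groups with a change of -0.12 ± 0.05 (edgeR adjusted p = 0.0887). MCM6 passed without DMSO replicate 1 (adjusted p = 0.0497, in a range of 0.0497 to 0.297 over 14 alternatives). MCM8, which acts in recombination and is outside the ring, changed by -0.38 ± 0.06. The introns of MCM7 hold the microRNA genes MIR25, MIR93 and MIR106B, whose rows averaged 3.22, 0.819 and 0.658 counts and were not tested.

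Of the 7 genes for helicase activation, 6 fell (85.7%, beside 17.8% of all tested genes). CDC7 (Entrez 8317, chromosome 1, 91500851 to 91525764), the kinase that phosphorylates the MCM ring, had 39.9, 40.2 and 39.9 CPM in the mitocurcumin libraries, against 68.2, 79.2 and 79.1 CPM in the DMSO libraries. The mitocurcumin libraries were nearly identical to each other, and the change was -0.92 ± 0.07 (edgeR adjusted p = 7.2e-08). DBF4, the subunit that activates CDC7, had 80.0, 78.1 and 76.6 CPM after mitocurcumin and 83.0, 94.3 and 92.6 CPM after DMSO, close but separate groups with a smaller change of -0.20 ± 0.06 (edgeR adjusted p = 0.0215). The call of DBF4 was lost without any 1 of 5 libraries, the exception being DMSO replicate 1, and with limma on the deposited log2 values (0.101). Its adjusted p ran over 4.3e-04 to 0.128 in 14 alternatives, with the highest without DMSO replicate 2 (log2 fold change -0.16). CDC45, which joins the ring in the active helicase, changed by -0.43 ± 0.08. In the GINS complex, which does so as 4 subunits, GINS1 had 35.3, 39.8 and 38.1 CPM after mitocurcumin and 64.0, 61.4 and 59.6 CPM after DMSO (-0.71 ± 0.07, edgeR adjusted p = 1.5e-06). GINS4 changed by -0.58 ± 0.08 and GINS2 by -0.44 ± 0.10. GINS3 did not pass at -0.24 ± 0.11 (edgeR adjusted p = 0.106), and its values overlapped, with 19.4 CPM in mitocurcumin replicate 2 and 19.0 CPM in DMSO replicate 2.

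Of the 9 polymerase genes, 8 fell (88.9%, beside 17.8% of all tested genes). POLE2, the second subunit of the leading-strand polymerase epsilon, had 29.03, 33.7 and 27.4 CPM in the mitocurcumin libraries, against 51.7, 53.2 and 50.1 CPM in the DMSO libraries (-0.78 ± 0.09, edgeR adjusted p = 2.9e-06), and its catalytic subunit POLE changed by -0.52 ± 0.06. In polymerase alpha with its primase, which lays the first bases of each fragment, POLA2 had 20.1, 17.3 and 17.2 CPM after mitocurcumin and 31.5, 27.3 and 24.7 CPM after DMSO (-0.62 ± 0.11, edgeR adjusted p = 3.5e-04). The other subunits changed by -0.32 ± 0.07 (POLA1), -0.47 ± 0.09 (PRIM1) and -0.28 ± 0.07 (PRIM2). In polymerase delta, which extends the lagging strand, POLD3 changed by -0.44 ± 0.07 and the catalytic subunit POLD1 by -0.44 ± 0.13. POLD2, its second subunit, had 74.7, 77.6 and 77.6 CPM after mitocurcumin and 78.4, 64.7 and 72.8 CPM after DMSO, overlapping groups with a change of 0.09 ± 0.07 that did not pass (edgeR adjusted p = 0.368). The call of POLD1 was lost without mitocurcumin replicate 2 (adjusted p = 0.0570) or replicate 3 (0.107), and with limma on the deposited log2 values (0.111), in a range of 0.00200 to 0.111 over 14 alternatives. Without DMSO replicate 1 its log2 fold change was -0.27 and still passed (adjusted p = 0.0435). The call of PRIM2 was lost with limma on those values (0.0502) and without mitocurcumin replicate 1 (0.0543, with 0.00128 to 0.0543 as its range) over 14 alternatives.

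**Figure D5:**
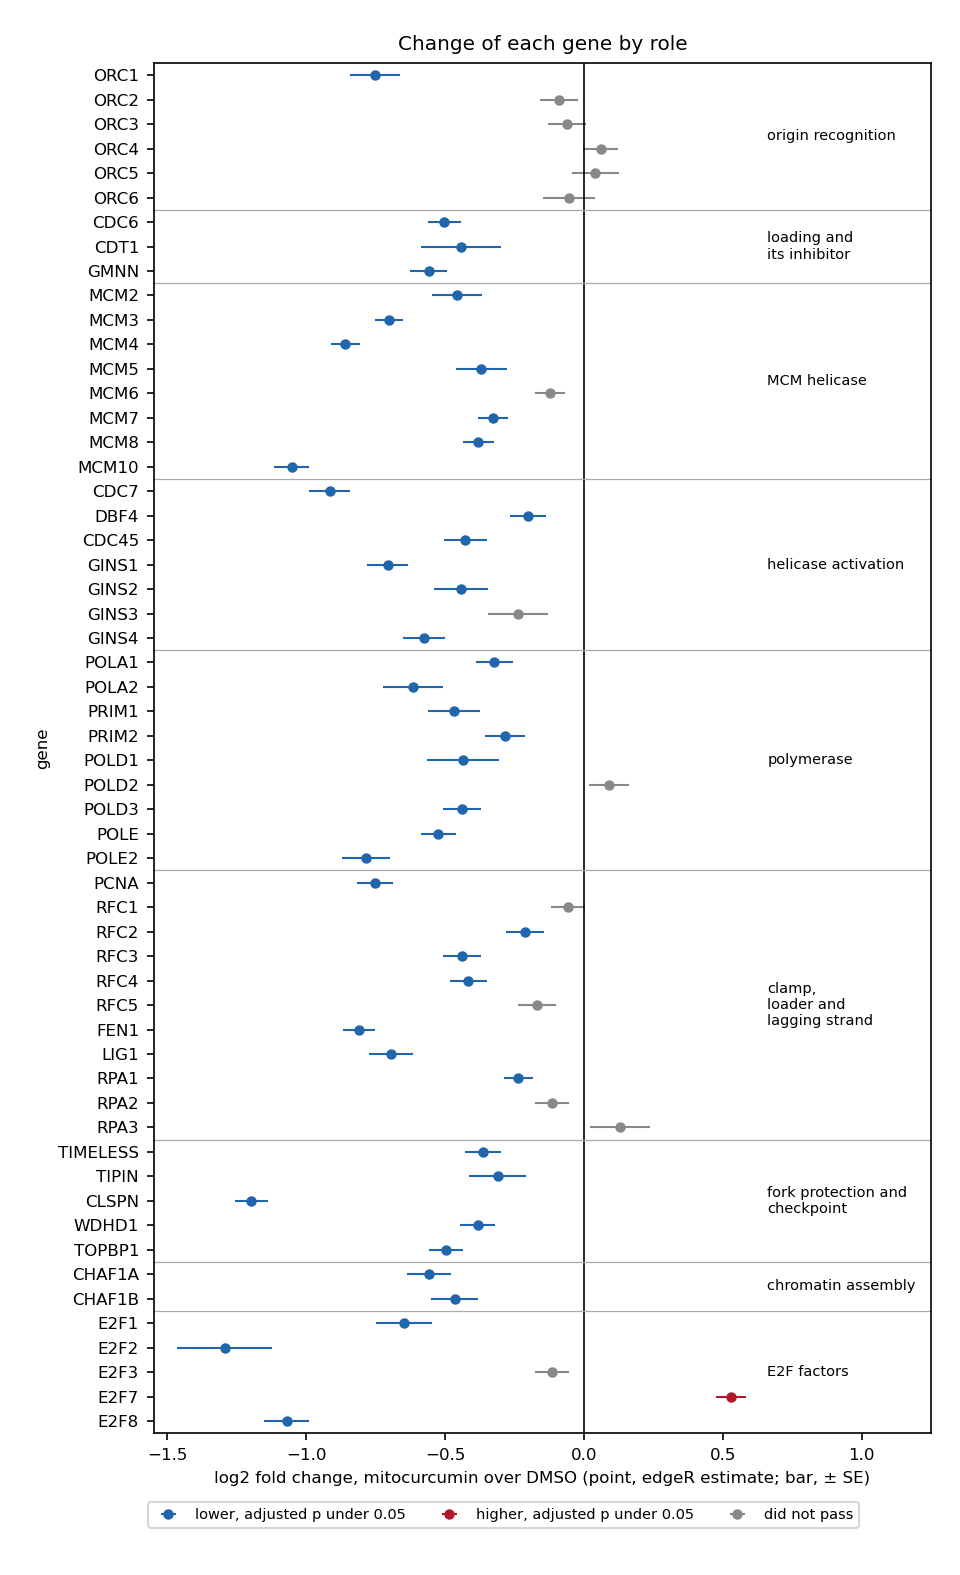
Log2 fold change, mitocurcumin over DMSO, of each of the 56 genes by role, as edgeR's estimate with bars of ± SE, coloured by whether the gene was lower, higher or did not pass at an adjusted p under 0.05. The 42 lower genes reach from -0.20 (DBF4) to -1.29 (E2F2), and E2F7, at 0.53, is the 1 higher gene.

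Among the sliding clamp, its loader and the lagging-strand factors, 7 of 11 genes fell (63.6%, beside 17.8% of all tested genes). FEN1, the nuclease that trims fragment ends, had 76.9, 79.1 and 80.8 CPM in the mitocurcumin libraries, against 144, 139 and 132 CPM in the DMSO libraries (-0.81 ± 0.06, edgeR adjusted p = 1.8e-08). PCNA, the clamp itself, had 130.1, 154 and 141 CPM after mitocurcumin and 233, 254 and 229 CPM after DMSO (-0.75 ± 0.07, edgeR adjusted p = 1.8e-07). Both were well separated between groups, and LIG1, the ligase that seals the fragments, changed by -0.69 ± 0.08. The clamp loader was uneven. RFC3 and RFC4 changed by -0.44 ± 0.07 and -0.42 ± 0.07, and RFC2 by -0.21 ± 0.07. RFC5 did not pass at -0.17 ± 0.07 (edgeR adjusted p = 0.0696), although its groups did not overlap. RFC1, the large subunit, had 139.6, 140.4 and 142 CPM after mitocurcumin and 133, 149 and 157 CPM after DMSO, the smallest change here at -0.06 ± 0.06 (edgeR adjusted p = 0.526). In the single-strand binding complex, RPA1 changed by -0.24 ± 0.05. RPA2 and RPA3 did not pass, at -0.12 ± 0.06 and 0.13 ± 0.11 (edgeR adjusted p = 0.170 and 0.403). The call of RFC2 was lost without any 1 of 4 libraries (mitocurcumin replicates 1 and 3, DMSO replicates 2 and 3), with upper quartile scaling (0.0529) and with limma on the deposited log2 values (0.0677), with an adjusted p of 0.00700 to 0.123 over 14 alternatives and the highest without mitocurcumin replicate 1.

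All 5 genes for fork protection and checkpoint signalling fell, beside 17.8% of all tested genes. CLSPN (Entrez 63967, chromosome 1, 35720213 to 35769978), claspin, the adaptor through which the kinase ATR activates CHEK1 at stalled forks, had 89.9, 92.6 and 99.8 CPM in the mitocurcumin libraries, against 204, 218 and 226 CPM in the DMSO libraries. The highest mitocurcumin value was 99.8 CPM and the lowest DMSO value 204 CPM, with a change of -1.20 ± 0.06 (edgeR adjusted p = 2.3e-10). TOPBP1, which activates ATR, had 101, 104 and 93.5 CPM after mitocurcumin and 136, 136 and 149 CPM after DMSO (-0.50 ± 0.06, edgeR adjusted p = 9.4e-06). TIMELESS and TIPIN, which form the fork protection complex, changed by -0.36 ± 0.07 and -0.31 ± 0.10, and WDHD1, which ties the helicase to polymerase alpha, by -0.38 ± 0.06. TIPIN, the smallest change, had 22.1, 22.8 and 20.4 CPM after mitocurcumin and 23.5, 29.3 and 28.0 CPM after DMSO, and its call was lost without any 1 of 5 libraries, the exception being DMSO replicate 1, and with limma on the deposited log2 values (adjusted p from 7.4e-04 to 0.134 over 14 alternatives, the highest without DMSO replicate 2). Both chromatin assembly genes also fell, whose proteins place histones on new DNA. CHAF1A had 58.9, 51.5 and 63.0 CPM after mitocurcumin and 80.5, 83.1 and 92.1 CPM after DMSO (-0.56 ± 0.08, edgeR adjusted p = 3.8e-05), and CHAF1B had 38.7, 45.9 and 36.3 CPM after mitocurcumin and 53.6, 56.5 and 56.7 CPM after DMSO (-0.47 ± 0.09, edgeR adjusted p = 4.8e-04).

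Partners within 1 function were compared by the difference of their log2 CPM within each library, for 6 pairs, with a two-sided exact permutation test over the 6 libraries whose smallest possible p is 0.100. No pair could therefore pass, and the values are given as they are. E2F8 minus E2F7 was -3.53, -3.43 and -3.51 after mitocurcumin, against -2.00, -1.83 and -1.86 after DMSO, a shift of -1.60 (exact p = 0.100, adjusted over the pairs 0.150). For ORC1 minus ORC4 the shift was -0.81, for E2F1 minus E2F3 -0.53 and for DBF4 minus CDC7 0.71, each with groups that did not overlap and the same exact p of 0.100 (adjusted 0.150). DBF4 minus CDC7 was 1.00, 0.96 and 0.94 after mitocurcumin, against 0.28, 0.25 and 0.23 after DMSO, so that every mitocurcumin library lay above every DMSO library. For GMNN minus CDT1 the shift was -0.12 (exact p = 0.6, adjusted 0.720), with SDs of 0.10 after mitocurcumin and 0.31 after DMSO. It was -0.30 without DMSO replicate 1, -0.046 without DMSO replicate 2 and -0.018 without DMSO replicate 3. For CHAF1B minus CHAF1A it was 0.09 (exact p = 0.900, adjusted 0.900), with SDs of 0.32 and 0.08, and both had overlapping groups.

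Levels were set against each other as CPM per kilobase of exon, with exon lengths from GENCODE 29, since longer transcripts yield more reads. PCNA was the most abundant of the 56 transcripts, at 96.3 ± 8.23 after mitocurcumin and 162 ± 9.07 after DMSO CPM per kilobase (SD, n = 3 each). MCM3 followed, at 64.1 ± 1.04 after mitocurcumin and 104 ± 2.19 after DMSO. Their order was the same in both groups, while E2F7 had rank 3 after mitocurcumin and rank 11 after DMSO, at 53.7 ± 2.12 after mitocurcumin and 37.2 ± 1.48 after DMSO. CLSPN had rank 23 after mitocurcumin and rank 9 after DMSO, at 18.9 ± 1.03 after mitocurcumin and 43.4 ± 2.23 after DMSO. E2F2 was the least abundant in both groups, at 0.591 ± 0.0288 after mitocurcumin and 1.45 ± 0.212 after DMSO, followed upwards by CDT1, at 2.54 ± 0.247 after mitocurcumin and 3.46 ± 0.583 after DMSO. Among the E2F genes, E2F7 exceeded E2F3, which stood at 20.7 ± 1.10 after mitocurcumin and 22.4 ± 1.02 after DMSO, in both groups.

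Other genes of the pathway were counted from lists chosen with earlier results of these data known. The counts stand beside 17.8% lower and 14.7% higher of all tested genes. Of 28 further replication factors, 18 were lower and 2 higher, with a median log2 fold change of -0.40. The lower genes with the largest change were DNA2, a nuclease and helicase (-0.97 ± 0.08), and ESCO2, which acetylates cohesin in S phase (-0.95 ± 0.07). The higher ones, named after their values were seen, were POLE4, a small subunit of polymerase epsilon (0.50 ± 0.16), and RNASEH2B, a subunit of ribonuclease H2 (0.33 ± 0.09). Of 14 genes listed as RB, DP and MuvB partners of E2F factors, 7 were lower and 2 higher, with a median of -0.22. The share of higher genes, 14.3%, was near the 14.7% of all tested genes. The list also holds E2F4, E2F5, E2F6 and MYBL2. RBL1, the RB relative p107, changed by -0.57 ± 0.06 and TFDP1, the DNA-binding partner of E2F proteins, by -0.48 ± 0.07, while RB1 changed by -0.26 ± 0.05. The higher ones were E2F5 (0.37 ± 0.10) and E2F6 (0.33 ± 0.09), both counted as repressors and also named after their values were seen. E2F4, counted as a repressor too, was lower (-0.45 ± 0.11, edgeR adjusted p = 0.00374). Of 10 genes of the ATR checkpoint, 6 were lower and 1 higher, with a median of -0.26. CDC25A, the phosphatase that activates CDK2, changed by -0.82 ± 0.08 and ATRIP, the partner of ATR, by -0.64 ± 0.16. RAD17, which loads the checkpoint clamp, was the higher one at 0.30 ± 0.07.

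Some rows could share reads with neighbours, since it is not given whether counting used strand. PCNA-AS1, which overlaps PCNA on the opposite strand by 384 bases, changed by -1.05 (edgeR adjusted p = 4.7e-04) at a mean of 106 counts, where PCNA averaged 4723. MCM8-AS1, opposite MCM8, changed by -0.91 (edgeR adjusted p = 0.0303) at a mean of 39.6 counts. CSRP3-AS1, opposite E2F8 over 17593 bases, averaged 87.8 counts, where E2F8 averaged 1047. It changed by 0.04 and did not pass (edgeR adjusted p = 0.914). RPA3 and UMAD1, on opposite strands, overlap over 77856 bases, and averaged 490.1 and 381 counts. Of 21 pseudogene rows named after these genes, 20 were at 0 in every library and PCNAP1 averaged 0.0833 counts after mitocurcumin and 0 after DMSO.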

How the data were processed

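Polyadenylated RNA was sequenced from 3 mitocurcumin and 3 DMSO libraries, prepared with a stranded kit per the labels' protocols. Reads were placed on GRCh38 (per the submitters' processing notes) with RefSeq genes (per the file headers). Which aligner and counter were used is not given in the sources used here. As deposited, raw values are estimated counts, which was judged from the numbers: totals differed between libraries, and 20.4% to 21.7% of those above 0 were whole numbers within 1e-06. The authors' normalized values are log2 values and, wherever above 0, differ from the log2 raw value by 1 constant in each library.

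After rounding, estimated counts entered edgeR 4.0.16 under R 4.3.3 (quasi-likelihood F-test, robust, TMM scaling, filterByExpr with a minimum count of 10 and total of 15, group as the only term). P-values were two-sided and adjusted by the Benjamini-Hochberg method over 16481 genes at a threshold of 0.05. Fold changes are mitocurcumin over DMSO with SE from the F statistic, and CPM values are TMM-scaled over the tested genes. The summed levels of the mitotic list and of the markers of other cell types are exceptions. They are unscaled CPM over all rows before the filter. Log2 CPM used a prior count of 2. The common biological coefficient of variation came to 8.43%. Libraries of 1 group differed by more than sampling noise (chi-square per gene 5.31 to 19.0), so none was counted as a duplicate. The fit was tested on simulated data. Promoters and motifs were read with Python 3.11.15. Alternatives covered scaling, filters, DESeq2 1.42.0, limma 3.58.1, a replicate term, a stricter threshold and each library left out. One further marker of other cell types is not reported here. The genes and lists were chosen with earlier results of these data known. In each group of genes the 2 largest changes and the smallest are given in every library, and in each further list the 2 largest called changes.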

Additional observations from a re-analysis of the deposited data

How the results depend on the processing

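The count of lower genes among the 56 was 42 as reported. It was 41 with upper quartile scaling, 35 with limma on the deposited log2 values, 37 at an adjusted p under 0.01 and 42 under the 6 other alternatives that kept all libraries. With each library left out it ran from 37 to 42, and E2F7 stayed higher in all 14 alternative fits. Of the 42 lower genes, 35 passed in every alternative fit and 7 were lost in at least 1 (CDT1, MCM5, DBF4, PRIM2, POLD1, RFC2 and TIPIN). None of the called genes changed sign. All 7 were lost with limma on the deposited log2 values, and MCM5 was lost only with limma on the deposited log2 values (adjusted p = 0.0624, in a range of 4.6e-04 to 0.0624 over 14 alternatives). The median log2 fold change of -0.44 moved to -0.43 with RLE scaling, -0.41 with upper quartile scaling, -0.42 with a CPM of at least 1 in at least 3 libraries, -0.43 with DESeq2 and -0.43 with limma voom. It was -0.44 to -0.41 with each library left out. Of the genes that did not pass, 4 changed sign with 1 library left out. Over these fits ORC4 ran from -5.3e-04 (without DMSO replicate 1) to 0.12, ORC5 from -0.0086 (without mitocurcumin replicate 3) to 0.093, ORC6 from -0.13 to 0.020 (without mitocurcumin replicate 2) and RFC1 from -0.12 to 0.0087 (without DMSO replicate 3). The shift of CHAF1B minus CHAF1A ran from -0.086 (without mitocurcumin replicate 2) to 0.23, and that of GMNN minus CDT1 from -0.30 (without DMSO replicate 1) to -0.018 (without DMSO replicate 3). All 5 pairs besides CHAF1B minus CHAF1A kept their sign. The share of promoters with an E2F match was 77.6% with the shorter motif that lacks the first T, beside 23.2% of tested genes. The cause of these differences was not tested.

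With 3 libraries per group, it could not be settled whether the replicate numbers pair the libraries. Deviations of same-numbered libraries from their group means correlated at 0.101, 0.017 and -0.0101 over genes. Mitocurcumin replicate 1 correlated best with its own number, and replicates 2 and 3 each with another. For replicate 2 the values were close, at 0.0179 with DMSO replicate 3 and 0.0170 with its own number. With the replicate block 42 of the 56 genes were lower and 1 higher, the same genes as without it, and 3163 of all tested genes were lower and 2643 higher, against 2938 and 2425 without it. The median of the 56 genes was then -0.43. E2F2 and CDT1, at means of 3.07 and 8.23 CPM after mitocurcumin, are the least precisely measured of the called genes by SE, with POLD1.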
